A study of Homo sapiens with 24 samples.

Results

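RNA levels of 10 breast stem cell surface markers were examined: CD44, CD24, EPCAM, PROM1, THY1, PROCR, CD9, MUC1, MME and ENG. The genes were taken by symbol, and they are 10 of the 66659 gene names or identifiers listed over the 4 deposited tables. All 10 had a value in the tables of the sorted Hs578T cells, the sorted HCC70 cells and the KIF20A depletion experiment, and 9 had one in the KIF20A overexpression experiment, whose table held no THY1 entry.

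Poly-A RNA-Seq was performed on 24 libraries of 3 triple-negative breast cancer (TNBC) cell lines, with 3 biological replicates for each of 8 conditions. From wild-type Hs578T and wild-type HCC70 cells, breast cancer stem cells (BCSCs) were sorted as CD24-CD44+ cells that were also ALDH+ by the ALDEFLUOR assay, and non-BCSCs were sorted as cells without these marks. MDA-MB-231 cells carried either a lentiviral control sgRNA (sgCtrl) or sgRNA 1 against KIF20A (KIF20A sg1), a mitotic kinesin. Further MDA-MB-231 cells carried an empty vector (EV) or were labelled as KIF20A overexpression (KIF20A OE). The 4 experiments were deposited separately, and the sample titles name no batch. A difference between experiments and a difference between batches thus cannot be told apart. The 1 sgRNA used leaves its own effects and loss of KIF20A joined. Whether the MDA-MB-231 cells were pools or clones is not given in the sources used here.

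Surface markers let live cells be separated by antibody, and BCSCs were first enriched from breast tumors by the pair CD44 and CD24. CD44 is the receptor for the matrix sugar hyaluronan, and CD24 is a small, heavily glycosylated protein held in the membrane by a glycosylphosphatidylinositol (GPI) anchor, as is THY1. EPCAM and MUC1 belong to the epithelial surface, CD9 is a tetraspanin that organizes other membrane proteins, PROM1 (CD133) sits on membrane protrusions, PROCR is the endothelial protein C receptor and marks mouse mammary stem cells, MME (CD10) is a peptidase of basal and myoepithelial cells, and ENG (CD105) is a coreceptor for TGF-β family ligands. Because CD44 and CD24 protein set the sort, their RNA in the sorted cells is a view of the gate and not an independent marker of the BCSC state.

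The 3 members whose RNA gave the clearest contrasts are shown by the 250 bases before the start of transcription (RefSeq sequences, GRCh38.p14, plus strand, read 5′ to 3′): CD44, which the OE libraries almost lacked, CD9, which was higher in Hs578T BCSCs, and MME, which was lower there. Capitals mark each GGGCGG on either strand (CCGCCC on the other), the core letters bound by SP1-type factors, and neighbouring matches run together.
CD44 at chr11:35138921-35139170: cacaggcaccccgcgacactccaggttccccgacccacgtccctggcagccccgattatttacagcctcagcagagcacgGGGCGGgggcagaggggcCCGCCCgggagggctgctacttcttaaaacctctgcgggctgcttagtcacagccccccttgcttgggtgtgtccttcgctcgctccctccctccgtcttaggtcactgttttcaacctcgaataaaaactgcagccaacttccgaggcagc
CD9 at chr12:6200150-6200399: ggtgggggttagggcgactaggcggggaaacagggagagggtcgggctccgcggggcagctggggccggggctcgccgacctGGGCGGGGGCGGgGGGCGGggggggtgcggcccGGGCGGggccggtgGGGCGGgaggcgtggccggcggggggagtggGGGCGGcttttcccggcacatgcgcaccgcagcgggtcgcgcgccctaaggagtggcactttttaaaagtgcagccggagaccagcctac
MME at chr3:155080069-155080318: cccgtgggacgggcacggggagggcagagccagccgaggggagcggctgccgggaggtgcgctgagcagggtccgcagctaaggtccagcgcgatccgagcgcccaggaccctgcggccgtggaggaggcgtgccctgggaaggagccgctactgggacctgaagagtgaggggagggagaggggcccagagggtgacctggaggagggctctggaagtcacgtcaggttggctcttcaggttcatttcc
The CD44 window held 2 matches and 15 CpG dinucleotides at 62.4% GC. The CD9 window held 6 matches and 28 CpG at 76.8% GC, and the MME window held 0 matches and 17 CpG at 69.6% GC. Over the 35116 RefSeq windows of the same length the median was 11 CpG and 58% GC, and 42.6% held at least 1 GGGCGG. All 3 windows thus lay above the median in CpG and GC, and they differed in these letters. For CD9 and for MME the printed window is 1 of 4 that RefSeq lists, and the others are not shown. For CD44 it lists 1. The letter counts therefore hold for the printed starts only. RefSeq windows were found for 8 of the 10 members. For the other two, EPCAM and THY1, none was printed.

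In the GENCODE 44 annotation of GRCh38, CD44 lies on chromosome 11 at 35138882 to 35232402, CD24 on chromosome 6 at 106969831 to 106975627, EPCAM on chromosome 2 at 47345158 to 47387601, and PROM1 on chromosome 4 at 15963076 to 16084378. THY1 lies on chromosome 11 at 119415476 to 119424985, PROCR on chromosome 20 at 35172072 to 35216240, and CD9 on chromosome 12 at 6199715 to 6238271. MUC1 lies on chromosome 1 at 155185824 to 155192916, MME on chromosome 3 at 155024124 to 155183704, and ENG on chromosome 9 at 127815013 to 127854658. Antisense genes overlap 12.5% of the exon bases of THY1, 12.8% of PROCR and 8.15% of ENG, and the strand setting of the authors' counting is not given in the sources used here. CD24 has near-identical copies elsewhere in the genome. In both sorted-line tables its entry stood among genes of chromosome Y, although RefSeq places CD24 on chromosome 6, so its values may hold reads of a copy and their share in the CD24 level was not tested.

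Depth, counted as whole reads recovered from the deposited values, ranged from 28387781 to 33953120 per Hs578T library, from 24982356 to 33983844 in HCC70, from 41424338 to 51018667 in the depletion experiment and from 15971297 to 22182293 in the overexpression experiment. KIF20A itself was checked first. It was higher in BCSCs than non-BCSCs of Hs578T by 0.45 ± 0.06 (log2 difference ± SE, adjusted p = 0.00718) and of HCC70 by 0.80 ± 0.05 (adjusted p = 0.00157, limma), and it had 153, 173 and 156 scaled reads with sgCtrl against 122, 145 and 91.1 with KIF20A sg1 (-0.45 ± 0.16, adjusted p = 0.69). The KIF20A groups of the depletion experiment did not overlap, yet the difference did not pass. KIF20A had 101, 143 and 124 counts per 1000000 (CPM) with EV and 1348, 269 and 896 CPM in OE (2.49 ± 0.51, adjusted p = 0.00249). Of the ALDEFLUOR enzymes, ALDH1A3 was 296, 291 and 280 transcripts per 1000000 (TPM) in Hs578T non-BCSCs and 701, 709 and 708 TPM in BCSCs (1.29, adjusted p = 8.39e-06), whereas in HCC70 ALDH1A3 (0.17, adjusted p = 0.179) and ALDH1A1 (0.13, adjusted p = 0.164) did not pass. ALDH1A3 was 13.3, 19.1 and 7.96 scaled reads with sgCtrl and 16.1, 11.9 and 14.2 with sg1 (0.12, adjusted p = 0.923), and 5.05, 0.967 and 4.23 CPM with EV against 12.0, 9.96 and 15.3 CPM in OE (1.74 ± 0.41, adjusted p = 0.00538). ALDH1A1 gave 2 reads in 1 sgCtrl library and 0 with sg1, and 0 reads with EV against 4, 28 and 51 in OE, and it was not tested in either experiment.

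The libraries labelled KIF20A OE stood apart from every other library labelled MDA-MB-231. Of 8 genes listed as markers of mesenchymal-like breast cancer lines, 8 were lower in them, with sums of 6896 to 7866 CPM in EV against 468 to 930.0 CPM in OE. All 7 genes listed as markers of embryonic kidney lines were higher, with sums of 0 to 0.143 CPM in EV against 1732 to 2285 CPM in OE. IRS4, an insulin receptor substrate, was at 0 reads in all EV libraries and at 1750, 1219 and 1744 CPM in OE, and CDKN2A, a cell cycle inhibitor gene that MDA-MB-231 cells have lost, was at 0 reads with EV and at 276, 336 and 353 CPM in OE. These values go against the MDA-MB-231 label of the 3 OE libraries, so a difference between OE and EV and a difference between cell populations cannot be told apart. Without these libraries no OE comparison remains, and every OE value below is given as that of the libraries so labelled.

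The 8 conditions were first set beside one another as recovered reads per 1000000 (RPM). This scale has no length term, so it lets 1 gene be followed across tables but does not rank different genes. CD24 is an exception, since its entry may not be the same in all tables. In the sorted lines it stood among genes of chromosome Y, whereas the depletion and overexpression experiments list the gene of chromosome 6. These levels are a description, since levels were not tested between the 4 experiments. CD44 had its highest mean in Hs578T BCSCs, 1626 ± 10.9 (SD, n = 3 here and below), followed by Hs578T non-BCSCs at 1546 ± 17.0, sgCtrl at 1405 ± 144, KIF20A sg1 at 1381 ± 130.2, EV at 642 ± 135 and HCC70 at 279 in both fractions. The libraries of sgCtrl and KIF20A sg1 overlapped, as did those of the 2 HCC70 fractions, whereas all other neighbours in this order were separate. CD44 was at 0.557 ± 0.591 in OE.

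CD24 ran nearly opposite to CD44 among the sorted lines. It was highest in HCC70 non-BCSCs at 758 ± 38.4 RPM, then in HCC70 BCSCs at 592 ± 17.0, and it was 77.9 ± 5.36 and 76.3 ± 5.17 in Hs578T non-BCSCs and BCSCs, which overlapped. With EV it was 32.2 ± 38.2, a spread larger than its mean and overlapping Hs578T BCSCs, while in the OE, sg1 and sgCtrl libraries it stayed between 0.477 and 1.27 on average. The EV and sgCtrl libraries are both MDA-MB-231 controls, yet every EV library had more CD24 reads than every sgCtrl library per sequenced read.

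The epithelial markers were led by HCC70. EPCAM, a cell adhesion molecule of epithelia, was 134 ± 4.00 RPM in HCC70 non-BCSCs and 127 ± 1.76 in BCSCs, 26.8 ± 8.53 with EV, 18.9 ± 2.78 with sgCtrl, 18.2 ± 2.25 with sg1, 2.67 ± 0.611 in OE, and below 1 in Hs578T. The mucin gene MUC1 had the same leading line, at 184 ± 13.1 and 169 ± 16.9 in HCC70 BCSCs and non-BCSCs. Its 3 groups of EV, sg1 and sgCtrl overlapped at 23.1 ± 27.9, 21.2 ± 10.2 and 17.7 ± 4.69, and Hs578T and OE stayed at 2.90 or less. CD9 was the member with a mean over 40 in every condition, from 436 ± 42.2 in HCC70 BCSCs through 283 ± 6.45 with EV, 176 ± 22.2 with sgCtrl, 71.1 ± 2.20 in Hs578T BCSCs and 49.6 ± 1.73 in Hs578T non-BCSCs down to 40.3 ± 6.93 in OE.

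PROM1 and THY1 were each found at a high level in 1 line. PROM1 was 404 ± 2.25 and 395 ± 3.54 RPM in HCC70 BCSCs and non-BCSCs and at most 0.222 on average elsewhere, with 0 reads in all 6 libraries of the depletion experiment. THY1, the GPI-anchored CD90, was 559.5 ± 24.7 in Hs578T non-BCSCs and 462 ± 28.6 in BCSCs. In HCC70 a single THY1 read was found over 6 libraries, and the depletion experiment held 4 reads in 1 library of each group. PROCR was highest in Hs578T BCSCs at 47.1 ± 2.15 and was 0.823 and 0.824 in the HCC70 fractions. In the 4 groups labelled MDA-MB-231 it lay between 16.9 and 23.4, where each overlapped its neighbour.

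MME and ENG split the libraries labelled MDA-MB-231. MME was 14.8 ± 1.11 in Hs578T non-BCSCs, 12.2 ± 0.373 in HCC70 non-BCSCs, 9.50 ± 0.749 in Hs578T BCSCs and 8.60 ± 0.200 in HCC70 BCSCs. It had 0 reads in the 6 libraries of the depletion experiment, for which a count of 0 allows up to 3 reads in a library, and 1 read over the EV libraries, yet 3.80 ± 0.496 RPM in OE. ENG was 38.4 ± 1.34 and 32.9 ± 1.69 in Hs578T non-BCSCs and BCSCs, 22.3 ± 18.1 with EV, 15.4 ± 0.952 and 14.9 ± 0.948 in HCC70, and 0.676 to 1.13 in the sg1, sgCtrl and OE groups, which overlapped.

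**Figure D1:**
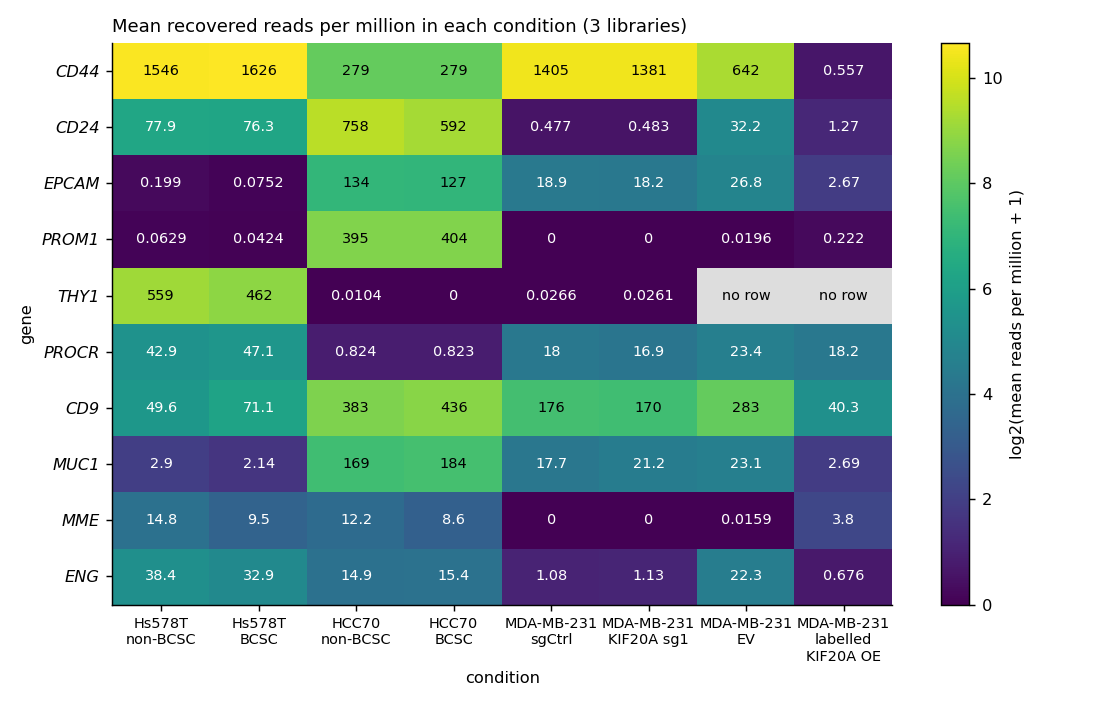
Heat map of the mean RPM of each surface marker (rows) in each of the 8 conditions (columns, n = 3 libraries each), with color on a log scale and the mean printed in each cell. THY1 and PROM1 are high in Hs578T and in HCC70 respectively, CD44 is at 0.557 in the libraries labelled KIF20A OE, and THY1 has no value in the overexpression table.

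Across the 8 condition means of log2(RPM + 1), EPCAM and MUC1 followed each other most closely among the members (Pearson r = 0.97, n = 8), with CD9 near both (r = 0.943 with MUC1 and 0.932 with EPCAM). PROCR ran against PROM1 (r = -0.957) and MUC1 (r = -0.918). The gate pair CD44 and CD24 had an r of 0.173, with the limit that the CD24 entry may differ between tables. Fractions of 1 line share their line and table, so these 8 points are far fewer independent ones, and the coefficients are descriptions without a p.

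Among 10972 genes found in all tables with a condition mean of at least 10 RPM, the gene most alike to CD44 was ITGB1, the integrin β1 chain (r = 0.993). For CD24 it was VSNL1 (0.999), with the same limit on the CD24 entry. For EPCAM it was IFI27 (0.998), for PROCR NEXN (0.998) and for CD9 CCNY (0.993). For MUC1 it was ESPN, an actin-bundling protein gene (0.995), for MME NMD3 (0.996) and for ENG ZNF284 (0.99). PROM1 was matched by S100P (1.00), but 69 genes had an r over 0.99 with it, and THY1, over the 6 conditions and 10537 genes with values, by NCAM1 (1.00), with 195 genes over 0.99. PROM1 and THY1 were high in 1 line and near 0 in the rest, a pattern that many genes shared.

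In Hs578T, 8 of the 10 markers reached a mean of 1 TPM and were tested. CD9 was higher and THY1, MME and ENG lower in BCSCs, while CD44 and CD24, the pair used for the sort, did not pass. This is 4 of 8 called (limma on log2(TPM + 1), Benjamini-Hochberg adjusted p under 0.05 over all genes), where 7.15% of the 13324 genes tested were called in either direction, 2.9% higher and 4.26% lower. The median log2 difference of the 8 was -0.14, against -0.01 over all genes tested. Fewer cells carrying a transcript and less of it per cell cannot be told apart in such bulk libraries.

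CD9 was 91.4, 95.1 and 86.5 TPM in Hs578T non-BCSCs and 128, 131 and 127 TPM in BCSCs. Every BCSC library lay above every non-BCSC library, and the difference was 0.49 ± 0.05 (log2, 95% interval 0.38 to 0.60, adjusted p = 0.00169). CD9 was called under all 13 alternative settings and left-out libraries, with differences from 0.46 to 0.53. MUC1 had 3.27, 2.95 and 5.15 TPM in non-BCSCs and 3.51, 1.98 and 2.83 TPM in BCSCs, which overlapped (-0.34 ± 0.20, adjusted p = 0.373). Its pooled reads per depth had a ratio of 0.731 (exact 95% counting interval 0.607 to 0.880). This interval leaves out the spread between replicates, which the limma test includes. EPCAM was under the minimum with 19 reads over the non-BCSC and 7 over the BCSC libraries, a ratio of 0.361 with an exact 95% counting interval of 0.128 to 0.896 that leaves out the spread between replicates.

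MME, the CD10 peptidase, was 6.47, 5.80 and 5.46 TPM in non-BCSCs and 4.01, 3.38 and 3.83 TPM in BCSCs of Hs578T. The groups were separate, and MME was lower by -0.54 ± 0.09 (log2, 95% interval -0.74 to -0.34, adjusted p = 0.0105), a call that was kept under all 12 alternatives that gave a value. Its window of 17 CpG without a GGGCGG is shown above.

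THY1 was 542, 571 and 575 TPM in Hs578T non-BCSCs and 464, 420.3 and 490.3 TPM in BCSCs. All 3 BCSC libraries were below all 3 non-BCSC libraries, and the difference was -0.30 ± 0.06 (log2, adjusted p = 0.0299). The THY1 call was kept under 8 of 13 alternatives. It was lost without non-BCSC replicate 1 (-0.33, adjusted p = 0.0688), without non-BCSC replicate 2 (-0.29, adjusted p = 0.128), without non-BCSC replicate 3 (-0.28, adjusted p = 0.0888), without BCSC replicate 1 (-0.31, adjusted p = 0.0968) and without a minimum level (-0.30, adjusted p = 0.0651), each a limma fit of fewer libraries or of more genes.

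ENG, the TGF-β coreceptor, was 28.2, 29.3 and 29.4 TPM in Hs578T non-BCSCs and 23.0, 25.2 and 25.1 TPM in BCSCs. These groups did not overlap either (-0.24 ± 0.05, 95% interval -0.36 to -0.12, adjusted p = 0.0341). The ENG call was kept under 6 of 13 alternatives. Of the fits that leave out 1 library, the call stayed without BCSC replicate 2 (-0.26, adjusted p = 0.0368) and was lost in the other 5, at -0.20 to -0.26 with adjusted p from 0.0554 without BCSC replicate 3 to 0.153 without non-BCSC replicate 2.

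CD44 was 569, 556 and 549 TPM in Hs578T non-BCSCs and 579, 566 and 591 TPM in BCSCs. The groups overlapped on the TPM scale, although they were separate on the RPM scale above. The difference on TPM of 0.05 ± 0.04 had a 95% interval from -0.04 to 0.15 (log2, adjusted p = 0.507). CD24 was 92.4, 87.8 and 78.4 TPM in non-BCSCs and 83.8, 87.0 and 78.5 TPM in BCSCs, again overlapping (-0.05 ± 0.07, 95% interval -0.21 to 0.11, adjusted p = 0.717). The cells sorted as CD24- thus still held CD24 RNA, with the limit on the CD24 entry given above. PROCR was 71.1, 70.5 and 72.1 TPM in non-BCSCs and 75.8, 73.2 and 82.5 TPM in BCSCs, separate but not passing the test (0.11 ± 0.05, adjusted p = 0.259). Groups that did not overlap were found for 5 of the 8 tested markers and for 29.0% of all genes tested.

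PROM1 was near 0 in Hs578T, with 6 reads in 1 non-BCSC library and 1, 2 and 1 reads in the BCSC libraries, and was not tested. On the TPM scale, which is per length, 6 of the 10 markers had a mean over 10 TPM in Hs578T, led by CD44 and THY1, and 2 were under 1 TPM. The 10 together summed to 1402 to 1419 TPM in non-BCSCs and 1308 to 1401 TPM in BCSCs. Markers of the cell states moved in part with these values in Hs578T: the sum of 8 epithelial markers was 323 to 352 TPM in non-BCSCs and 384 to 426 TPM in BCSCs, and the sum of 8 mesenchymal markers was 17512 to 18214 TPM against 15727 to 17472 TPM. Of the 3 epithelial markers tested, KRT18 was higher (0.28, adjusted p = 0.0296, limma), while ESRP1 (0.29, adjusted p = 0.168) and KRT8 (-0.20, adjusted p = 0.165) did not pass and pointed opposite ways. Of the 8 mesenchymal markers, AXL was higher (0.22, adjusted p = 0.0325) and S100A4 (-0.53, adjusted p = 0.003) and FN1 (-0.31, adjusted p = 0.0352) were lower. The part of these markers in the CD9, THY1, MME and ENG differences was not tested.

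In HCC70, 9 markers were tested and 0 were called, where 2.83% of 13218 genes were (limma), 3134 had an unadjusted p under 0.05, and edgeR and DESeq2 on recovered reads each called 2 markers, CD24 and MME. The median log2 difference of the 9 was 0.04, against 0.02 over all genes tested. For 3 of the 9 markers the groups did not overlap (30.9% of all genes), with CD24 and MME lower and PROM1 higher in BCSCs.

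CD24 was 912, 828 and 831 TPM in HCC70 non-BCSCs and 685, 667 and 725 TPM in BCSCs. Every BCSC library was lower, at a difference of -0.31 ± 0.07 (log2, 95% interval -0.46 to -0.15) with an adjusted p of 0.0543 in limma. It passed by edgeR (-0.33, adjusted p = 0.00863), by DESeq2 (-0.34, adjusted p = 5.09e-06), after rescaling by the median of ratios (-0.34, adjusted p = 0.0462) and with a minimum mean of 10 TPM (-0.31, adjusted p = 0.0391), and did not under the other 9 of 13 alternatives. The CD24 entry thus still stood at 667 to 725 TPM in the BCSC libraries, which were sorted to lack CD24 protein. The limit on the CD24 entry given above holds here too.

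MME was 4.84, 4.97 and 5.14 TPM in HCC70 non-BCSCs and 3.63, 3.66 and 3.62 TPM in BCSCs. It was lower in all 3 BCSC libraries (-0.37 ± 0.08, 95% interval -0.55 to -0.19, adjusted p = 0.0516), and passed by edgeR (-0.48, adjusted p = 0.0105) and DESeq2 (-0.48, adjusted p = 0.00179) among 12 alternatives. PROM1, the CD133 antigen, was 226, 224 and 227 TPM in non-BCSCs and 242, 233 and 242 TPM in BCSCs. These PROM1 groups were separate by a small step that did not pass (0.08 ± 0.05, adjusted p = 0.336).

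CD44 was 105, 98.7 and 106 TPM in HCC70 non-BCSCs and 106, 95.5 and 118 TPM in BCSCs, overlapping (0.04 ± 0.08, 95% interval -0.14 to 0.23, adjusted p = 0.788). CD9 was 663, 714 and 778 TPM in non-BCSCs and 879, 894 and 766 TPM in BCSCs, where BCSC replicate 3 fell among the non-BCSC libraries (0.24 ± 0.09, 95% interval 0.03 to 0.44, adjusted p = 0.156). MUC1 was 202, 238 and 239 TPM against 255, 234 and 279 TPM (0.18 ± 0.09, adjusted p = 0.274). The epithelial markers thus did not pass in HCC70, where they are abundant.

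EPCAM was 198, 182 and 195 TPM in HCC70 non-BCSCs and 189, 184 and 195 TPM in BCSCs (-0.02 ± 0.06, adjusted p = 0.864). ENG was 10.8, 11.5 and 12.2 TPM against 12.6, 12.6 and 11.6 TPM (0.09 ± 0.07, adjusted p = 0.488). PROCR, at 1.30, 1.29 and 1.61 TPM against 1.51, 1.51 and 1.32 TPM, rested on 19 to 30 reads a library (0.03 ± 0.11, adjusted p = 0.905). All 3 overlapped between fractions. Of the 10 markers, 7 had a mean over 10 TPM in HCC70, led by CD24 and CD9, and THY1 alone was under 1 TPM. Sums of the epithelial markers were 5682 to 6556 TPM in non-BCSCs and 5911 to 6847 TPM in BCSCs, and those of the 7 mesenchymal markers with an entry were 1196 to 1307 and 1175 to 1217 TPM, overlapping in both cases.

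**Figure D2:**
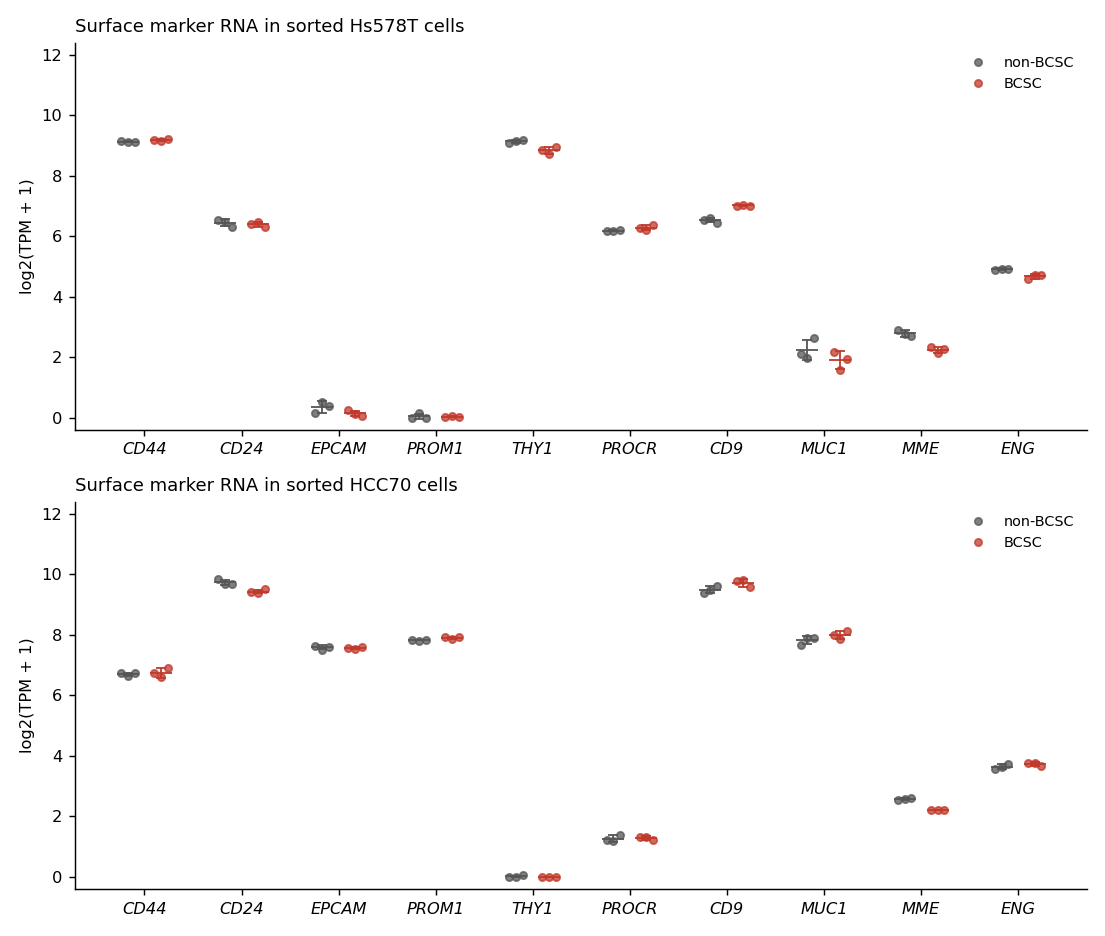
TPM of the 10 surface markers in sorted non-BCSCs and BCSCs of Hs578T and HCC70 (points, libraries; horizontal marks, means; bars, SD; n = 3). CD9 in Hs578T is 128, 131 and 127 TPM in BCSCs above 91.4, 95.1 and 86.5 TPM in non-BCSCs, and MME is lower in the BCSC libraries of both lines, with the call in Hs578T.

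Whether the BCSC difference itself differed between the lines was tested by the fraction by line term of a limma fit over the 12 sorted libraries, in which 2 of 10 markers were called and 8.1% of 13705 genes were. The term was 0.28 ± 0.08 for THY1 (HCC70 minus Hs578T, log2, adjusted p = 0.0499) and 0.33 ± 0.08 for ENG (adjusted p = 0.0353). THY1 had 1 read in HCC70 altogether and entered this fit through Hs578T, so its term restates the Hs578T difference and does not compare the lines. EPCAM and PROM1 likewise entered through HCC70. Of the 7 markers tested in both lines, 1 was called, ENG. For KIF20A the term was 0.35 (adjusted p = 0.0267) and for ALDH1A3 -1.12 (adjusted p = 1.32e-05). ENG pointed down in Hs578T, where it was called, and up in HCC70, where it was not.

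Both calls were narrow. The THY1 call was kept in 1 of 17 alternatives, without Hs578T BCSC replicate 3 (0.33, adjusted p = 0.0266), and it ranged from 0.16 to 0.33. The ENG call was kept in 6 of 17, among them without Hs578T BCSC replicate 3 (0.35, adjusted p = 0.0381), without HCC70 non-BCSC replicate 3 (0.37, adjusted p = 0.0283) and without HCC70 BCSC replicate 3 (0.37, adjusted p = 0.0336). Leaving out any of the other 9 libraries ended the ENG call, at 0.29 to 0.35. For CD9 (-0.26, adjusted p = 0.124), CD24 (-0.26, adjusted p = 0.115), MME (0.18, adjusted p = 0.269) and MUC1 (0.51, adjusted p = 0.2) the term did not pass. The calls of CD9 and MME in Hs578T and not in HCC70 thus do not show a difference between the lines.

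With KIF20A depleted in MDA-MB-231 cells, 6 markers were tested and 0 were called, as were 0.0% of the 12852 genes tested (limma), where 899 had an unadjusted p under 0.05, edgeR called 0 and DESeq2 16, none of them a marker. The median log2 difference of the 6 was -0.03, against 0.00 over all genes. None of the 6 had separate groups, while 13.0% of all genes did. Values here are reads divided by 1 factor per library, without a length term.

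CD44 was 1457, 1506 and 1247 scaled reads with sgCtrl and 1370.4, 1559.6 and 1241 with KIF20A sg1. The highest library was of sg1 and so was the lowest, and the difference was -0.01 ± 0.16 with a 95% interval from -0.36 to 0.34 (adjusted p = 0.988). CD9 was 152, 202 and 175 against 170.4, 176 and 166 (-0.04, adjusted p = 0.958). EPCAM was 16.0, 18.7 and 22.0 against 20.3, 16.3 and 18.2 (-0.04, adjusted p = 0.96). The sg1 libraries of CD9 and EPCAM lay inside the range of the controls.

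PROCR was 16.6, 18.5 and 19.0 scaled reads with sgCtrl and 16.7, 14.4 and 19.8 with sg1 (-0.09, adjusted p = 0.901). MUC1 was 18.7, 21.8 and 12.5 against 19.9, 32.9 and 11.5, and its interval of -0.51 to 0.87 around 0.18 (log2, adjusted p = 0.902) leaves room for sizeable differences either way. ENG was 1.56, 1.00 and 0.662 against 0.752, 0.766 and 1.86 (0.02, adjusted p = 0.989), which overlapped. CD24, under the minimum, gave 12, 20 and 38 reads with sgCtrl and 16, 20 and 30 with sg1, a ratio of 0.969 (exact 95% counting interval 0.682 to 1.38). PROM1 and MME had 0 reads in all 6 libraries, and THY1 had 4 reads with each sgRNA, so these 3 markers were not detectable or barely so at this depth.

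Between the libraries labelled KIF20A OE and EV, 8 of the 9 markers with an entry were tested, and CD44, CD24, EPCAM, CD9 and ENG were lower and MME higher in OE. That is 6 of 8, where 69.7% of the 15265 genes tested were called, 46.2% higher and 23.4% lower (limma on log2(CPM + 1)). The same 6 had groups that did not overlap, as 74.1% of all genes had. The median log2 difference of the 8 was -2.84, against 0.37 over all genes tested, which became 0.04 after rescaling by the median of ratios, and no call of a marker turned direction by this.

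CD44 was 788, 615 and 523 CPM with EV and 0.125, 0.316 and 1.23 CPM in OE, from 16556, 12722 and 8895 reads against 2, 7 and 23 reads. The groups were far apart, at -8.73 ± 0.27 on the log2(CPM + 1) scale (adjusted p = 1.13e-07), and the ratio of the pooled reads per depth was 0.000866 (exact 95% counting interval 0.000592 to 0.00122). The other 9 libraries labelled MDA-MB-231 each held between 8895 and 77357 CD44 reads. The CD44 promoter window is printed above.

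CD9 was 291, 280.4 and 279 CPM with EV and 32.3, 43.5 and 45.0 CPM in OE (-2.80 ± 0.14, adjusted p = 1.12e-06). EPCAM was 29.6, 17.3 and 33.6 CPM against 2.25, 2.39 and 3.37 CPM (-2.88 ± 0.27, adjusted p = 3.35e-05). ENG was 15.9, 8.22 and 42.7 CPM against 0.689, 0.857 and 0.482 CPM (-3.50 ± 0.49, adjusted p = 0.000325). In each of the 3 every OE library was below every EV library, and the calls stayed under all 13 alternatives.

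CD24 was 16.5, 4.35 and 75.8 CPM with EV and 1.88, 0.541 and 1.39 CPM in OE. It was lower in all OE libraries (-3.13 ± 0.82, adjusted p = 0.00892), with an EV spread that made the interval wide, from -5.02 to -1.24. MUC1 was 54.4, 1.01 and 14.0 CPM with EV and 2.94, 3.20 and 1.93 CPM in OE, which overlapped because of EV replicate 2 (-1.70 ± 1.00, adjusted p = 0.158). MUC1 passed by edgeR (-3.50, adjusted p = 0.0228) and DESeq2 (-3.51, adjusted p = 0.0127) and without EV replicate 2 (-2.98, adjusted p = 0.00228), and stood at -0.59 without EV replicate 1 (adjusted p = 0.499). The highest EV library was 17.4 times the lowest in CD24, 53.6 times in MUC1 and 5.20 times in ENG.

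Except for OE, no group labelled MDA-MB-231 held more than 1 read of MME. In OE, MME was found at 3.82, 3.29 and 4.28 CPM, from 61, 73 and 80 reads, against 1, 0 and 0 reads with EV. On the log2(CPM + 1) scale it was higher by 2.23 ± 0.17 (adjusted p = 1.13e-05), and the ratio of the pooled reads was 221 (exact 95% counting interval 39.3 to 8771). PROCR was 21.7, 23.8 and 24.7 CPM with EV and 17.2, 13.7 and 23.9 CPM in OE (-0.37 ± 0.21, adjusted p = 0.144). PROCR passed by edgeR (-0.72, adjusted p = 0.0242), by DESeq2 (-0.72, adjusted p = 0.00935), after rescaling by the median of ratios (-0.72, adjusted p = 0.0161) and without OE replicate 3 (-0.58, adjusted p = 0.0356), 4 of 13 alternatives. On recovered reads both edgeR and DESeq2 thus called 8 of 8 markers. Over all genes edgeR called 10889 and DESeq2 11993, against 10634 by limma, so most genes were called as well. PROM1 gave 2, 12 and 0 reads in OE against 0, 0 and 1 with EV and was not tested.

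**Figure D3:**
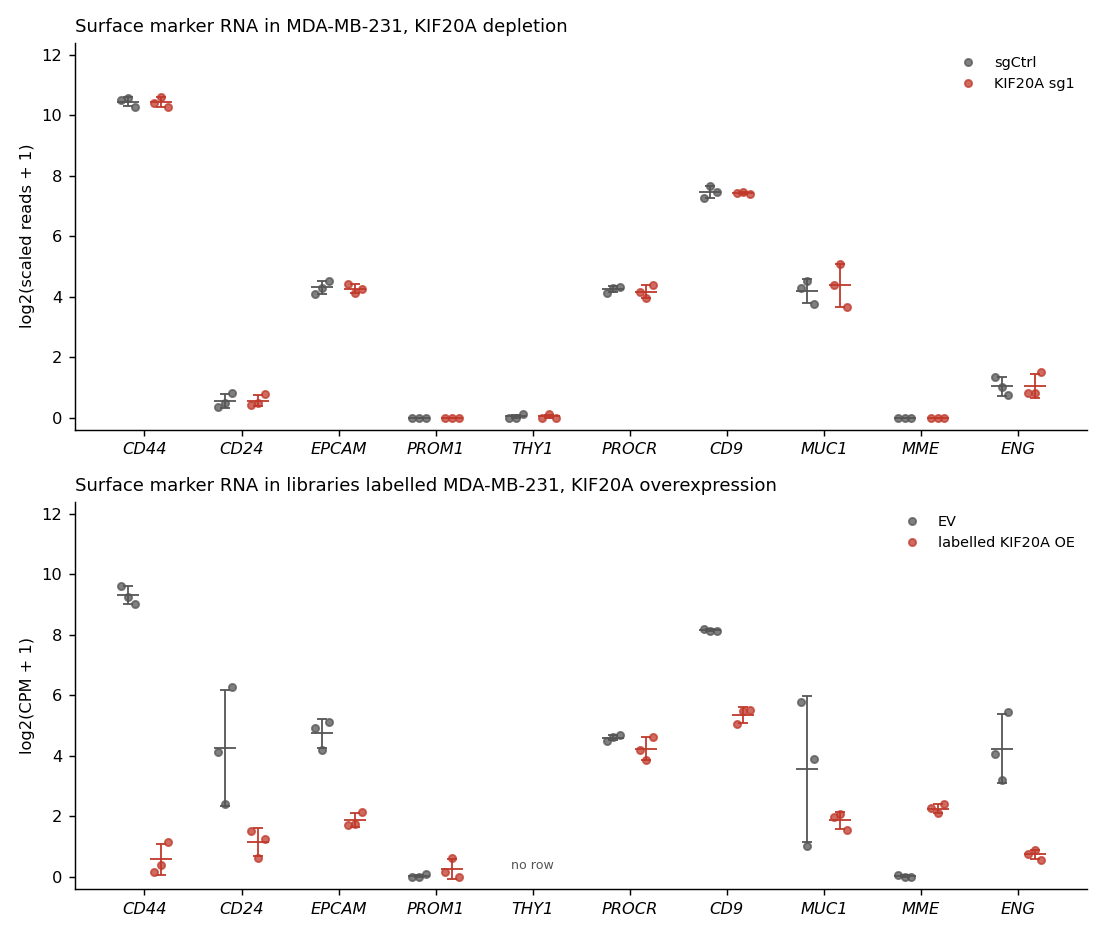
Surface markers in the 4 groups labelled MDA-MB-231 (n = 3 libraries each). The scale is log2(scaled reads + 1) for sgCtrl and KIF20A sg1 and log2(CPM + 1) for EV and the libraries labelled KIF20A OE. Points are libraries, horizontal marks means and bars SD. The sgCtrl and sg1 points overlap for all markers. CD44 is at 523 to 788 CPM with EV and at 0.125 to 1.23 CPM in OE, and THY1 has no entry in the overexpression table.

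**Figure D4:**
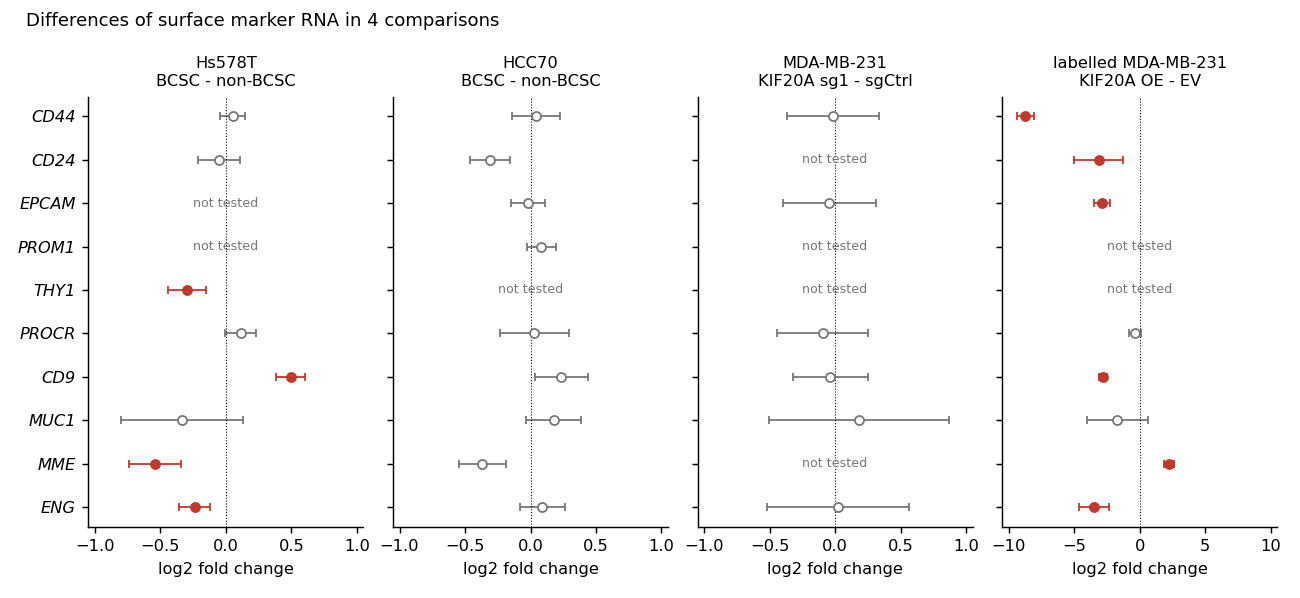
Log2 differences with 95% intervals of the tested surface markers in the 4 comparisons, with filled red points at an adjusted p under 0.05 (limma) and a wider axis for OE against EV. Called are CD9, THY1, MME and ENG in Hs578T, 0 markers in HCC70 and in the depletion experiment, and 6 markers in the libraries labelled KIF20A OE.

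Other genes around the markers were read from 6 lists, and their counts are descriptions without a set test. The Hs578T counts stand beside 7.15% of all genes called, 2.9% higher and 4.26% lower. In Hs578T, of 14 other stem cell surface markers 9 were tested, 1 was higher and 1 lower in BCSCs: ITGB3, the integrin β3 chain, at 34.2, 34.7 and 34.2 TPM against 46.0, 43.7 and 47.4 TPM (0.40, adjusted p = 0.00277), and LGR5, an R-spondin receptor, at 3.96, 3.95 and 3.48 TPM against 2.70, 2.03 and 2.08 TPM (-0.56, adjusted p = 0.0196). Of 9 tetraspanins and CD9 partners 3 were lower and 0 higher. These were CD82 (-0.32, adjusted p = 0.0103), CD63 (-0.27, adjusted p = 0.0417) and PTGFRN, a partner protein of CD9 (-0.20, adjusted p = 0.0274). CD9 was thus higher while 3 of its own class or its partners were lower.

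Of 8 tested genes for the CD44 ligand, splicing and cleavage, MMP14, a membrane protease that sheds CD44, was 122, 126 and 129 TPM in Hs578T non-BCSCs and 97.3, 93.6 and 101 TPM in BCSCs (-0.36, adjusted p = 0.00503), and EZR, which links CD44 to actin, was higher (0.20, adjusted p = 0.0338). Of 6 tested receptor partners of ENG and PROCR, the thrombin receptor gene F2R (0.28, adjusted p = 0.0347) and TGFBR1 (0.23, adjusted p = 0.0377) were higher, where ENG was lower. Of 3 tested epithelial partners GALNT3, a mucin glycosyltransferase gene, was higher (0.33, adjusted p = 0.0164), and of 16 GPI anchor genes 0 were called by limma. Leaving out 1 library ended the calls of CD63, EZR, F2R, PTGFRN and TGFBR1 in at least 4 of 6 fits each, and that of LGR5 in 3 of 6.

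In HCC70, where 2.83% of all genes were called, the same lists gave KIT, the stem cell factor receptor, at 13.1, 13.5 and 13.0 TPM against 8.03, 7.87 and 10.00 TPM (-0.56, adjusted p = 0.0272), as the 1 call among 8 tested stem cell markers. TSPAN1 was 232, 267 and 259 TPM against 349, 353 and 376 TPM (0.51, adjusted p = 0.0128), as the 1 call among 9 tetraspanins and partners. SPINT1, a protease inhibitor of epithelia (0.33, adjusted p = 0.0463), was 1 of 8 epithelial partners, and PIGS, a subunit of the GPI transamidase (0.40, adjusted p = 0.0294), 1 of 16 GPI genes. Of 9 CD44 genes and 7 receptor partners 0 were called. Leaving out 1 library ended the SPINT1 call in 6 of 6 fits, the KIT call in 5, the PIGS call in 4 and the TSPAN1 call in 3. With KIF20A sg1, 0 genes of all 6 lists were called.

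In OE the lists are read against the 69.7% of all genes called. Of 14 other stem cell markers 9 were lower and 3 higher, led by NT5E (CD73), at 1191, 1273 and 1254 CPM with EV against 0.125, 0.270 and 0.428 CPM (-9.93, adjusted p = 8.22e-09), and CDCP1 (-9.61, adjusted p = 8.22e-09), ITGA6 (-4.98) and ITGB3 (-4.65). Of 10 tested CD44 genes 7 were lower and 0 higher, among them MMP14 (-8.77), the hyaluronan synthase gene HAS2 (-4.81), MSN (-2.94) and ESRP2 (-1.76). A link between these differences and that of CD44 was not tested, and the limit on the cell population of the OE libraries given above holds here too.

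Of 7 tested receptor partners 7 were lower, among them tissue factor (F3, -5.44), TGFBR2 (-4.67), thrombomodulin (THBD, -4.29) and F2RL1 (-2.46). Of 8 epithelial partners 5 were lower, among them CLDN7 (-5.10), EGFR (-3.99) and GALNT3 (-3.76), and 1 was higher. Tetraspanins and partners went both ways with 5 lower and 4 higher: TSPAN1 (-4.80), CD82 (-4.48) and TSPAN14 (-2.04) were lower, and PTGFRN was 0.190, 0 and 0.235 CPM with EV against 167, 134 and 181 CPM in OE (7.14, adjusted p = 7.69e-08). Of 16 GPI anchor genes 8 were higher and 2 lower, the largest differences being PIGM (2.18), PIGT (-1.35), PIGV (-1.32) and PIGA (1.28). After rescaling by the median of ratios, higher tetraspanins and partners went from 4 to 2, lower CD44 genes from 7 to 9 and lower epithelial partners from 5 to 6. GPI genes went from 8 higher and 2 lower to 7 higher and 4 lower, and PIGB and GPAA1, not called before, turned sign. No gene called in both fits turned direction.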

How the data were processed

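RNA-Seq tables from 24 libraries, 3 replicates in each of 8 conditions, were analysed. Poly-A libraries were sequenced as pairs. The submitters' processing notes name HISAT2 2.0.5, featureCounts 1.5.0-p3 and GRCh38, without roles, and the strand setting of the counting is not given in the sources used here. The authors deposited TPM for Hs578T and HCC70, values per transcript length scaled to a total of 1000000 per library. For the depletion experiment the authors deposited a signal, reads divided by 1 factor per library, with sums from 977394 to 1028621, named CPM by them. For the overexpression experiment they deposited CPM, reads scaled to 1000000 per library. All sample columns were used.

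Whole reads were recovered for 100.0% of the listed genes in every table (within 0.004 reads). For 260 genes in Hs578T and 262 in HCC70 the recovery first gave reads lacking a common factor. This factor was restored from the gene length implied by the other sorted line, which could be done only for genes listed in both lines. On simulated TPM values, without this restoring, 98.2% of genes were recovered exactly and 1.75% lacked a common factor. Depth ranged from 15971297 to 51018667 recovered reads per library.

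Each comparison was fitted alone by limma 3.58.1 (R 4.3.3, trend) on log2(value + 1) over the 6 libraries, for genes with a mean of at least 1, with Benjamini-Hochberg adjustment over all genes and a threshold of 0.05. The fold changes are on this scale, which understates those of low genes. The difference between the sorted lines was the fraction by line term over 12 libraries. Alternatives were a pseudocount of 0.1, no minimum, a minimum mean of 10, rescaling by the median of ratios, edgeR 4.0.16 (quasi-likelihood) and DESeq2 1.42.0 on recovered reads, the replicate number as a block, and leaving out each library in turn. Intervals on ratios of reads are exact at 95% and, like the floor of 3 counts for a value of 0, cover counting error only. The paper calls the replicates biological triplicates but does not say whether they came from separate cultures, so p-values measure the spread between these libraries. The fits were tested on simulated data.

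The 10 markers, KIF20A, ALDH1A1 and ALDH1A3 are named in every comparison where they have values. From each list, up to 4 genes per comparison with the largest differences at an adjusted p under 0.05 are named, and for each marker the gene most alike over the condition means. A gene that this rule names is not reported here. The members and lists were chosen with earlier results of these data known. Markers of endothelial cells and leukocytes, also listed, summed to at most 36.3 and 119 in any library of any group on the scale of its table.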

Additional observations from a re-analysis of the deposited data

Results flagged for a closer look

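The BCSC difference of ENG differed between the sorted lines by the fraction by line term of limma. The term was 0.33 (HCC70 minus Hs578T, log2, adjusted p = 0.0353), with -0.24 in Hs578T (lower in 3 of 3 BCSC libraries, adjusted p = 0.0341) and 0.09 in HCC70, where the groups overlapped (adjusted p = 0.488). Adjusted p over the alternatives ranged from 0.0283 to 0.0928.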

How the results depend on the processing

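Where a value changed with the setting, the cause was not tested. In Hs578T 953 genes and 4 markers were called, against 1801 genes by edgeR and 1475 by DESeq2, 2 markers with no minimum, and 342 to 880 genes and 2 to 4 markers when 1 library was left out. In HCC70 374 genes and 0 markers were called, against 178 genes with no minimum, 232 after the median of ratios, 753 by edgeR and 1152 by DESeq2, 1 marker with a minimum mean of 10 or the median of ratios, 2 by edgeR or DESeq2, and 32 to 247 genes when 1 library was left out. In the depletion experiment 0 genes became 16 by DESeq2 and 0 to 144 when 1 library was left out, the highest without sgCtrl replicate 3. The term between the lines called 1110 genes and 2 markers, of which THY1 does not compare the lines, against 1 marker with a pseudocount of 0.1, no minimum or a minimum mean of 10, 0 after the median of ratios, and 440 to 1425 genes and 0 to 2 markers when 1 library was left out. In the OE comparison 9700 to 10289 genes were called when 1 library was left out, of 10634. The share of calls that were higher moved under the median of ratios from 40.5% to 52.0% in Hs578T, from 66.3% to 51.2% in OE and from 77.7% to 54.6% for the term between lines.

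Whether equal replicate numbers pair the samples is not given in the sources used here. Same-numbered libraries correlated at -0.16 to 0.19 in their deviations, not all over 0.1 in any comparison. Deviations from a mean of 3 libraries cannot decide whether samples were paired. With the number as a replicate block, HCC70 gave 128 genes and the term between the lines 408 genes and 0 markers. In Hs578T the block left 3 of 4 markers called, without ENG (adjusted p = 0.0601, limma).

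Among differences near 0, signs turned. CD44 in the depletion experiment was 0.00823 by edgeR and -0.10 to 0.0641 with 1 library left out. Left-out ranges there were -0.14 to 0.0679 for CD9, -0.22 to 0.18 for ENG, -0.15 to 0.0673 for EPCAM, -0.18 to 0.54 for MUC1, -0.20 to 0.0132 for PROCR and -0.18 to 0.40 for ALDH1A3. In HCC70 they were -0.0343 to 0.12 for CD44, -0.0550 to 0.00480 for EPCAM and -0.00427 to 0.0900 for PROCR, in Hs578T -0.12 to 0.000996 for CD24, and for the term of CD44 -0.0861 to 0.0659. CD9 and MME in Hs578T and CD44, CD24, EPCAM, CD9, ENG and MME in OE kept their calls and direction under every alternative that gave a value. Low levels, and so few reads, limited EPCAM and PROM1 in Hs578T (7 against 19 and 4 against 6 pooled reads, BCSC against non-BCSC). The same held for THY1 in HCC70 (0 against 1) and CD24 in the depletion experiment (66 against 70, sg1 against sgCtrl).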
